A study of Mus musculus with 6 samples.

Results

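The genes described here are a hand-chosen set for glutathione, thioredoxin and antioxidant enzymes. They comprise the enzymes that remove superoxide and peroxides, the thioredoxin, glutaredoxin and glutathione systems that supply those enzymes with electrons, the regulators NRF2 and KEAP1, and the methionine sulfoxide reductases and pentose phosphate enzymes linked to them. Members were chosen by gene name, all 38 were found among the 29097 genes of the deposited table, and 36 of the 10440 genes tested were members. The libraries were made by Smart-seq2, a full-length cDNA protocol without molecular identifiers, from CD45+CD11b+Ly6G+ neutrophils sorted by FACS from the peripheral blood (PB) of male C57BL/6 wild-type mice that were 8 weeks old. In the ligature-induced periodontitis group (LIP, Lig in the labels), the second molars of both jaws had carried silk ligatures on both sides for 14 d, and control mice (Ctrl) had no ligatures over those 14 d. Each of the 3 libraries per group pooled neutrophils from 5 mice, so differences between single mice were averaged within a pool. The comparison asks how these transcripts differ in circulating neutrophils between LIP and Ctrl. The Ctrl libraries held 53059029, 54358483 and 52301060 counts in total, and the LIP libraries 56504173, 57262379 and 52186555.

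Neutrophils make superoxide with their NADPH oxidase, and superoxide dismutases turn it into hydrogen peroxide. Catalase, glutathione peroxidases and peroxiredoxins remove the peroxide, and both kinds of peroxidase draw electrons from glutathione or thioredoxin, which are in turn reduced by glutathione reductase and thioredoxin reductases at the expense of NADPH. The transcription factor NRF2, held down by KEAP1 until oxidants or electrophiles modify KEAP1, switches on many of these genes.

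Higher transcript levels in LIP were found for 19 of the 36 tested members and lower levels for 9, whereas 8 did not pass the test (edgeR quasi-likelihood test with TMM normalization, Benjamini-Hochberg adjusted p under 0.05 over all genes tested), and none was higher on the neutrophil-marker scale. Of all genes tested, 26.5% were called higher and 27.2% lower. The members led by glutathione reductase *Gsr*, methionine sulfoxide reductase *Msrb1*, microsomal glutathione transferase *Mgst1*, cytosolic thioredoxin *Txn1* and glutaredoxin *Glrx* were 2.91 to 3.47 fold higher in LIP, while peroxiredoxin *Prdx2* and the mitochondrial glutaredoxin gene *Glrx5* were 3.44 and 2.68 fold lower on the TMM scale, but the first 5 were negative on the neutrophil-marker scale described below, *Txn1* and *Glrx* being called lower there (edgeR adjusted p = 0.00775 and 0.0314). The median log2 difference, LIP minus Ctrl, was 0.65 over the 36 tested members and -0.095 over all genes tested. Without overlap between the groups, 19 tested members were higher in all 3 LIP libraries and 10 were lower, against 30.3% and 33.1% of all genes tested. The members *Gpx3* and *Nqo1* were below the filter, which asked for 1 FPKM or more on average across the 6 libraries. A low gene that passes such a filter only through the group where it is high had to differ, so these counts describe the genes and support nothing further.

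These directions hold on the TMM scale, which sets the bulk of genes level between libraries, and they depended on that choice. With library totals in its place, 18 members were called higher and 15 lower (all genes 1919 and 4146, against 2766 and 2835 with TMM), and with erythroid genes left out of the totals 14 were called higher and 15 lower (all genes 1451 and 5133). Scaled to the summed counts of 22 mature neutrophil marker genes (the neutrophil-marker scale), all 36 members had negative log2 differences in edgeR, 33 of them called lower, and 43 of all genes were called higher and 9370 lower. Among these markers *S100a8*, *S100a9* and *Il1b* had the most counts in every library, so they weigh most in that scale. Whether the scale follows the share of neutrophils or the level of these transcripts per neutrophil was not tested. The median over all genes moved from -0.095 with TMM to -0.42 with library totals, -0.63 without erythroid genes and -1.98 on the neutrophil-marker scale. With TMM the members' own median was 0.74 above that of all genes, and 21 of the 36 lay above it, which a change of scale, moving all genes by nearly the same amount, cannot alter much. For members described below, the neutrophil-marker difference is therefore given beside the TMM difference.

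**Figure D1:**
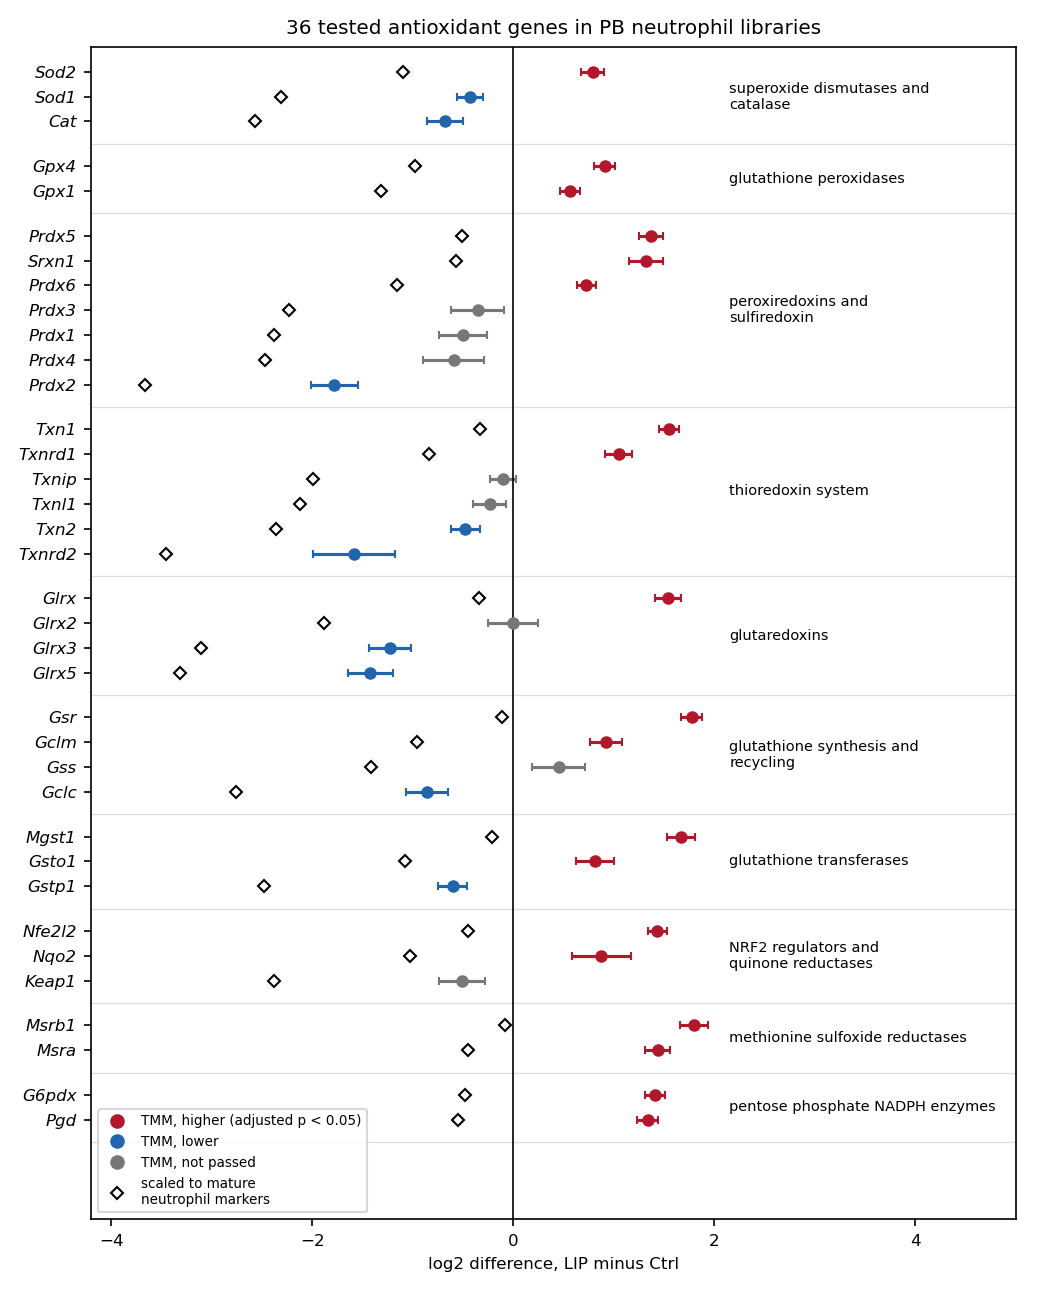
Log2 differences, LIP minus Ctrl, of the 36 tested members by role. Filled points are TMM values with bars of 1 SE from edgeR, red for called higher, blue for called lower and grey for not passed, and open diamonds are the values scaled to mature neutrophil markers, on which all 36 members lie below 0.

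Markers of other blood cells differed between the groups alongside the members. Summed over the 15 erythroid genes in the table, FPKM was 180830.0, 186324 and 187060.0 in the Ctrl libraries and 20221, 19509.8 and 19552 in the LIP libraries, with all 11 tested genes called lower in LIP under each scaling and *Hba-a1* the most abundant. Haemoglobin genes took 14.6% to 15.02% of counts in Ctrl and 1.55% to 1.61% in LIP. The 12 B cell markers, led by *Ighm*, summed to 3821, 4102 and 3868 FPKM in Ctrl and 551, 615 and 611 FPKM in LIP, and the 12 T cell markers, led by *Trbc2*, to 441, 477 and 424 FPKM and 73.5, 79.5 and 64.8 FPKM, all 24 being called lower under each scaling. The sort for Ly6G should remove these cells, yet their defining transcripts were present in every library.

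The 22 mature neutrophil markers were all called higher in LIP on the TMM scale, with a median log2 difference of 1.86 (on their own scale 5 were higher and 6 lower), and their summed level, led by *S100a9*, was 18690.0, 22276 and 20924 FPKM in Ctrl and 63159, 67897 and 62999 FPKM in LIP. *Ly6g*, the sort marker, was listed at 18.7, 19.5 and 18.2 FPKM in the Ctrl libraries and 37.8, 47.9 and 48.3 FPKM in the LIP libraries. Of the 10 immature neutrophil markers, led by *Camp*, 5 were tested and 3 called higher on the TMM scale (all 5 lower on the neutrophil-marker scale). The list summed to 659, 776 and 692 FPKM in Ctrl and 806, 889 and 831 FPKM in LIP. The 3 called higher, *Camp*, *Chil3* and *Ltf*, made up most of that sum, while *Elane* and *Prtn3* did not pass (TMM log2 differences -1.33 and -0.022). Below the filter, *Mpo* and *Top2a* were lower and *Mki67* higher in every LIP library than in any Ctrl library on the TMM scale. Platelet markers (9 of 9 called higher, but 8 lower on the neutrophil-marker scale, led by *Ppbp*) summed to 825, 1089.7 and 1007 FPKM and 1760.5, 1754 and 2047 FPKM, and monocyte markers (9 of 10 higher and *Irf8* lower, but 8 lower and 0 higher on that scale, led over all libraries by *Ly6c2*, but in Ctrl by *Irf8*) to 231, 239 and 247 FPKM and 313, 337 and 307 FPKM. NK cell markers (3 of 7 higher, but 0 with library totals and all 7 lower on the neutrophil-marker scale, led by *Gzma*) summed to 236, 285 and 246 FPKM in Ctrl and 243, 263 and 241 FPKM in LIP, and the 7 eosinophil and basophil markers (1 of 5 tested higher, but 3 lower and 0 higher on that scale, led by *Siglecf*) to 13.9, 8.59 and 9.56 FPKM and 15.7, 14.04 and 19.8 FPKM. None of the listed markers in the table was at 0 reads over the 6 libraries, but the immature neutrophil markers *Ctsg* (4 reads, in LIP library 2 only) and *Ms4a3* (78 reads, in Ctrl library 2 only) were at 0 in the other 5. In bulk libraries, fewer cells of a type and less RNA per cell cannot be told apart, and the part of these markers in the members' differences was not tested.

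Per length of gene, the members spanned a wide range of levels. Their summed FPKM was 2002, 2165 and 2102 in the Ctrl libraries and 3076, 3225 and 3200.3 in the LIP libraries, without overlap. Summed FPKM of the mature neutrophil markers rose by a larger factor, from a mean of 20630 in Ctrl to 64685 in LIP. Relative to those markers, the members' sum was lower in LIP. *Gpx1* had the highest mean FPKM over the 6 libraries (806, rank 58 among the 29097 genes), followed by *Gsr* (379.5 FPKM, rank 125), *Txn1* (306 FPKM, rank 164), *Prdx5* (183 FPKM, rank 277), *Txnip* (181 FPKM, rank 278) and *Gpx4* (149.9 FPKM, rank 329). In Ctrl, *Gsr* and *Txnip* were at similar levels (202 ± 28.4 and 206 ± 39.6 FPKM, SD, n = 3), whereas in LIP *Gsr* was at 557 ± 27.6 FPKM and *Txnip* at 155 ± 9.67 FPKM. The order over all libraries is therefore that of neither group. *Txnip* was above *Txn1* (mean 181 FPKM) in Ctrl and below *Gpx4* (mean 181 FPKM) in LIP. The gene lengths implied by the deposited counts and FPKM ran from 1.14 kb for *Txn1* to 10.8 kb for *Sod2*, so a gene whose model is longer than its main transcript is placed lower by FPKM than its transcript would be.

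Among the superoxide dismutases and catalase, *Sod2* rose in LIP on the TMM scale and *Sod1* and *Cat* fell, all 3 being negative on the neutrophil-marker scale. *Cat* (ENSMUSG00000027187, chr2:103453849-103485160, minus strand), the haem enzyme that splits hydrogen peroxide and is abundant in red cells, was counted at 104, 78.3 and 118 CPM in the Ctrl libraries and 75.6, 56.8 and 54.4 CPM in the LIP libraries (CPM, counts scaled to library total and TMM-normalized), with log2 differences of -0.68 ± 0.1804 (SE, edgeR adjusted p = 0.00888) on the TMM scale and -2.57 on the neutrophil-marker scale. All 3 LIP libraries lay below all 3 Ctrl libraries, although LIP library 1 came close to Ctrl library 2. *Sod2*, the manganese enzyme of mitochondria, had 61.2 ± 4.22 CPM in Ctrl and 106 ± 2.24 CPM in LIP (mean ± SD, n = 3), with log2 differences of 0.79 ± 0.116 (SE, edgeR adjusted p = 2.43e-04) on the TMM scale and -1.10 on the neutrophil-marker scale, and the call was lost with erythroid genes left out of the totals (edgeR adjusted p = 0.0695). *Sod1*, the cytosolic copper and zinc enzyme, had 94.8 ± 11.2 CPM in Ctrl and 70.3 ± 5.55 CPM in LIP, with log2 differences of -0.43 ± 0.132 (SE, edgeR adjusted p = 0.0185) on the TMM scale and -2.32 on the neutrophil-marker scale. The *Sod1* call did not hold when Ctrl library 2, Ctrl library 3, LIP library 1 or LIP library 3 was left out (edgeR adjusted p = 0.0556, 0.0511, 0.0641 and 0.0506), nor without a filter or with filterByExpr (edgeR adjusted p = 0.086 and 0.052). Within a library, the FPKM ratio of *Sod2* to *Sod1*, which no scaling between libraries changes, was 0.288, 0.244 and 0.242 in the Ctrl libraries and 0.666, 0.547 and 0.5897 in the LIP libraries, and the groups did not overlap.

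Both tested glutathione peroxidases, selenium enzymes that spend glutathione to reduce peroxides, were higher in LIP on the TMM scale and lower on the neutrophil-marker scale. *Gpx1* (ENSMUSG00000063856, chr9:108338903-108340343, plus strand), the abundant cytosolic form, was counted at 913, 1170.3 and 996 CPM in the Ctrl libraries and 1496, 1564 and 1497 CPM in the LIP libraries, with log2 differences of 0.57 ± 0.0973 (SE, edgeR adjusted p = 7.10e-04) on the TMM scale and -1.32 on the neutrophil-marker scale. The LIP libraries lay above the Ctrl libraries, but with erythroid genes left out of the totals the log2 difference was 0.034 and the call was lost (edgeR adjusted p = 0.757). *Gpx4*, which reduces lipid hydroperoxides in membranes, had 199 ± 18.2 CPM in Ctrl and 374 ± 12.7 CPM in LIP, with log2 differences of 0.91 ± 0.103 (SE, edgeR adjusted p = 3.89e-05) on the TMM scale and -0.98 on the neutrophil-marker scale. Its processed copy *Gpx4-ps2* was listed at 62.8 mean FPKM with a TMM log2 difference of 0.95, close to that of *Gpx4*, and since the counting may have divided shared reads between them the level of *Gpx4* is uncertain. *Gpx3* (ENSMUSG00000018339, chr11:54902453-54910377, plus strand), the secreted plasma form, was below the filter at 0.933, 1.24 and 0.6901 FPKM in the Ctrl libraries and 1.35, 1.37 and 0.354 FPKM in the LIP libraries. These values rest on 37 to 153 reads per library, the groups overlapped, and LIP library 3 was the lowest of the 6.

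The peroxiredoxins, thiol enzymes that reduce peroxides with electrons from thioredoxin or, for *Prdx6*, glutathione, moved in different directions on the TMM scale, with *Prdx5*, *Prdx6* and *Srxn1* called higher and *Prdx2* lower, and all 7 genes of the group were negative on the neutrophil-marker scale. *Prdx5* (ENSMUSG00000024953, chr19:6906697-6909978, minus strand), found in mitochondria, peroxisomes and cytosol, was counted at 208, 282 and 249 CPM in the Ctrl libraries and 601, 661 and 651 CPM in the LIP libraries, with log2 differences of 1.37 ± 0.119 (SE, edgeR adjusted p = 5.89e-06) on the TMM scale and -0.51 on the neutrophil-marker scale. *Prdx2* (ENSMUSG00000005161, chr8:84969587-84974834, plus strand), a cytosolic form abundant in red cells, was counted at 50.95, 78.04 and 58.3 CPM in the Ctrl libraries and 14.6, 23.9 and 15.9 CPM in the LIP libraries, with log2 differences of -1.78 ± 0.232 (SE, edgeR adjusted p = 1.04e-04) on the TMM scale and -3.67 on the neutrophil-marker scale. Every LIP library was above every Ctrl library for *Prdx5* and below for *Prdx2*, and Ctrl library 2 and LIP library 2 were the highest of their groups in both genes. *Prdx5* stood to *Prdx2* in FPKM ratios of 5.83, 5.16 and 6.09 in the Ctrl libraries and 58.8, 39.5 and 58.7 in the LIP libraries, with no overlap between the groups.

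*Prdx6*, which also has phospholipase activity, had 222 ± 16.04 CPM in Ctrl and 367 ± 2.63 CPM in LIP, with log2 differences of 0.73 ± 0.09699 (SE, edgeR adjusted p = 1.25e-04) on the TMM scale and -1.16 on the neutrophil-marker scale, and it did not pass with erythroid genes left out of the totals (edgeR adjusted p = 0.0965). *Srxn1*, sulfiredoxin, which restores overoxidized peroxiredoxins, had 28.04 ± 3.19 CPM in Ctrl and 70.01 ± 12.8 CPM in LIP, with log2 differences of 1.32 ± 0.172 (SE, edgeR adjusted p = 1.04e-04) on the TMM scale and -0.57 on the neutrophil-marker scale. Both were without overlap between the groups. The cytosolic *Prdx1* (log2 difference -0.50 ± 0.2400 (SE, edgeR adjusted p = 0.102) with TMM and -2.38 on the neutrophil-marker scale), the mitochondrial *Prdx3* (-0.36 ± 0.267 (SE, edgeR adjusted p = 0.282) and -2.23) and the *Prdx4* of the endoplasmic reticulum (-0.59 ± 0.305 (SE, edgeR adjusted p = 0.123) and -2.47) did not pass the test, though *Prdx1* passed at a mean FPKM of at least 5 (edgeR adjusted p = 0.0278) and with the replicate block (edgeR adjusted p = 0.0274) and all 3 passed as lower with library totals. The *Prdx1* value rests largely on single libraries, at -0.18 without Ctrl library 2 and -0.31 without LIP library 1 (edgeR adjusted p = 0.477 and 0.276). The *Prdx3* value was -0.57 without Ctrl library 1 and -0.17 without Ctrl library 3 (edgeR adjusted p = 0.0768 and 0.676). Of *Prdx1*, *Prdx3* and *Prdx4*, only *Prdx4* had LIP libraries all below the Ctrl libraries.

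Of the 6 genes of the thioredoxin system, the cytosolic *Txn1* and *Txnrd1* were higher in LIP on the TMM scale, the mitochondrial *Txn2* and *Txnrd2* lower, and *Txnip* and *Txnl1* did not pass, while on the neutrophil-marker scale all 6 were negative. *Txn1* (ENSMUSG00000028367, chr4:57943373-57956411, minus strand), the small dithiol protein that reduces peroxiredoxins, was counted at 178, 202 and 175 CPM in the Ctrl libraries and 555, 545 and 527 CPM in the LIP libraries, with log2 differences of 1.55 ± 0.0985 (SE, edgeR adjusted p = 7.78e-07) on the TMM scale and -0.33 on the neutrophil-marker scale. *Txn2* (ENSMUSG00000005354, chr15:77915047-77928974, minus strand), its mitochondrial counterpart, was counted at 50.8, 60.9 and 50.7 CPM in the Ctrl libraries and 35.9, 40.1 and 40.5 CPM in the LIP libraries, with log2 differences of -0.48 ± 0.144 (SE, edgeR adjusted p = 0.0171) on the TMM scale and -2.37 on the neutrophil-marker scale. The groups did not overlap in either gene, the gap being wide for *Txn1* and narrow for *Txn2*. The *Txn2* call did not hold without Ctrl library 2 or without LIP library 1 (edgeR adjusted p = 0.0661 and 0.0547), nor without a filter (edgeR adjusted p = 0.0627). Cytosolic to mitochondrial thioredoxin transcripts had FPKM ratios of 14.01, 13.3 and 13.8 in the Ctrl libraries and 62.02, 54.5 and 52.2 in the LIP libraries.

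*Txnrd2* (ENSMUSG00000075704, chr16:18426384-18479070, plus strand), the mitochondrial thioredoxin reductase, was counted at 8.72, 9.700 and 9.800 CPM in the Ctrl libraries and 5.13, 1.902 and 2.35 CPM in the LIP libraries, with log2 differences of -1.59 ± 0.4102 (SE, edgeR adjusted p = 0.00798) on the TMM scale and -3.46 on the neutrophil-marker scale. It was the least abundant tested member per length (1.39 mean FPKM), LIP library 1 was higher than the other LIP libraries, and the groups did not overlap. It passed the filter only through the Ctrl libraries (2.19 mean FPKM against 0.586 in LIP), which limits what its p-value can show (edgeR adjusted p = 0.0372 in the fit without a filter). *Txnrd1*, the cytosolic selenoprotein reductase, had 48.8 ± 6.08 CPM in Ctrl and 101 ± 0.436 CPM in LIP, with log2 differences of 1.05 ± 0.1301 (SE, edgeR adjusted p = 7.52e-05) on the TMM scale and -0.84 on the neutrophil-marker scale. Within a library the FPKM ratio of *Txnrd1* to *Txnrd2* was 3.495, 2.74 and 3.499 in the Ctrl libraries and 12.3, 33.5 and 26.8 in the LIP libraries, higher in every LIP library than in any Ctrl library. *Txnip*, which binds and inhibits thioredoxin, had 624 ± 114 CPM in Ctrl and 581 ± 34.9 CPM in LIP, with a TMM log2 difference of -0.10 ± 0.1296 (SE, edgeR adjusted p = 0.523) and a neutrophil-marker difference of -1.99. The groups overlapped in *Txnip*, which passed the test as lower with library totals (edgeR adjusted p = 0.0211) and without Ctrl library 2 (edgeR adjusted p = 0.0425) and had a log2 difference of 0.0065 without Ctrl library 3. *Txnl1*, a proteasome-associated thioredoxin-like protein, did not pass the main test either (-0.24 ± 0.163 (SE, edgeR adjusted p = 0.24) on the TMM scale and -2.13 on the neutrophil-marker scale) and its groups overlapped, but it passed as lower with library totals and at a mean FPKM of at least 5 (edgeR adjusted p = 0.0135 and 0.0419).

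Among the glutaredoxins, small oxidoreductases that use glutathione, *Glrx* was higher and *Glrx3* and *Glrx5* were lower in LIP on the TMM scale, and all 4 genes were negative on the neutrophil-marker scale. *Glrx* (ENSMUSG00000021591, chr13:75839868-75850154, plus strand), the dithiol cytosolic form, was counted at 78.1, 89.1 and 67.1 CPM in the Ctrl libraries and 215, 230.4 and 238 CPM in the LIP libraries, with log2 differences of 1.54 ± 0.128 (SE, edgeR adjusted p = 4.29e-06) on the TMM scale and -0.34 on the neutrophil-marker scale. *Glrx5* (ENSMUSG00000021102, chr12:105032688-105042906, plus strand), a mitochondrial monothiol form needed for iron-sulfur clusters and for haem synthesis in red cell precursors, was counted at 64.3, 80.8 and 60.9 CPM in the Ctrl libraries and 23.96, 34.3 and 18.6 CPM in the LIP libraries, with log2 differences of -1.42 ± 0.224 (SE, edgeR adjusted p = 3.90e-04) on the TMM scale and -3.31 on the neutrophil-marker scale. *Glrx3* (ENSMUSG00000031068, chr7:137437614-137468594, plus strand), a cytosolic monothiol form involved in iron handling, was counted at 30.9, 36.05 and 36.99 CPM in the Ctrl libraries and 11.6, 16.2 and 16.7 CPM in the LIP libraries, with log2 differences of -1.23 ± 0.206 (SE, edgeR adjusted p = 6.14e-04) on the TMM scale and -3.11 on the neutrophil-marker scale. None of these 3 genes overlapped between the groups, and library 2 was the highest of its group in *Glrx5* for Ctrl and for LIP. *Glrx2*, the mitochondrial dithiol form, had 13.5 ± 2.03 CPM in Ctrl and 13.5 ± 2.82 CPM in LIP and log2 differences of -0.0026 ± 0.253 (SE, edgeR adjusted p = 0.994) on the TMM scale and -1.88 on the neutrophil-marker scale, its groups overlapping. The FPKM ratio of *Glrx* to *Glrx5* was 0.815, 0.739 and 0.739 in the Ctrl libraries and 6.01, 4.500 and 8.598 in the LIP libraries, below 1 in every Ctrl library and above 1 in every LIP library.

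Of the genes for making and recycling glutathione, *Gsr* and *Gclm* were higher and *Gclc* lower in LIP on the TMM scale, while on the neutrophil-marker scale all 4 genes were negative. *Gsr* (ENSMUSG00000031584, chr8:33652523-33698163, plus strand), glutathione reductase, which regenerates glutathione with NADPH, was counted at 571, 458 and 585 CPM in the Ctrl libraries and 1751, 1863 and 1912 CPM in the LIP libraries, with log2 differences of 1.78 ± 0.105 (SE, edgeR adjusted p = 5.14e-07) on the TMM scale and -0.12 on the neutrophil-marker scale. All 3 LIP libraries were above all Ctrl libraries by a wide gap. *Gclc* (ENSMUSG00000032350, chr9:77754535-77794485, plus strand), the catalytic subunit of glutamate-cysteine ligase, the rate-limiting enzyme of glutathione synthesis, was counted at 46.7, 32.2 and 43.5 CPM in the Ctrl libraries and 21.3, 27.3 and 18.7 CPM in the LIP libraries, with log2 differences of -0.86 ± 0.2099 (SE, edgeR adjusted p = 0.00574) on the TMM scale and -2.76 on the neutrophil-marker scale. Its groups did not overlap, with Ctrl library 2 and LIP library 2 nearest to each other. *Gclm*, the modifier subunit of the same ligase, had 84.2 ± 13.3 CPM in Ctrl and 159.7 ± 27.2 CPM in LIP, with log2 differences of 0.92 ± 0.159 (SE, edgeR adjusted p = 7.11e-04) on the TMM scale and -0.96 on the neutrophil-marker scale. Modifier to catalytic subunit FPKM ratios were 0.926, 1.83 and 1.13 in the Ctrl libraries and 3.73, 4.097 and 5.12 in the LIP libraries, without overlap between the groups. *Gss*, glutathione synthetase, had 11.96 ± 2.75 CPM in Ctrl and 16.3 ± 2.97 CPM in LIP and did not pass the test (0.45 ± 0.263 (SE, edgeR adjusted p = 0.171) on the TMM scale and -1.42 on the neutrophil-marker scale), its groups overlapping. *Gsr* to *Txnrd1*, the reductases of the glutathione and the thioredoxin system, had FPKM ratios of 30.1, 27.6 and 27.4 in the Ctrl libraries and 44.9, 47.3 and 48.8 in the LIP libraries.

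The glutathione transferases, which join glutathione to electrophiles, were split, with *Mgst1* and *Gsto1* higher and *Gstp1* lower in LIP on the TMM scale and all 3 negative on the neutrophil-marker scale. *Mgst1* (ENSMUSG00000008540, chr6:138140316-138156755, plus strand), the membrane-bound form, was counted at 58.4, 72.2 and 73.8 CPM in the Ctrl libraries and 208, 243 and 198 CPM in the LIP libraries, with log2 differences of 1.67 ± 0.135 (SE, edgeR adjusted p = 3.64e-06) on the TMM scale and -0.22 on the neutrophil-marker scale. *Gstp1* (ENSMUSG00000060803, chr19:4035407-4037985, minus strand), the cytosolic pi-class form, was counted at 51.3, 60.1 and 59.1 CPM in the Ctrl libraries and 39.9, 38.7 and 33.7 CPM in the LIP libraries, with log2 differences of -0.60 ± 0.144 (SE, edgeR adjusted p = 0.00523) on the TMM scale and -2.49 on the neutrophil-marker scale. The groups were clearly apart in *Mgst1* and apart by a smaller gap in *Gstp1*. The related *Gstp2* (2.54 mean FPKM) and the copy *Gstp-ps* (3.75 mean FPKM) may share reads with *Gstp1*, whose level of 28.9 mean FPKM is uncertain to that extent. *Gsto1*, the omega-class form, had 22.9 ± 3.67 CPM in Ctrl and 40.2 ± 5.42 CPM in LIP, with log2 differences of 0.81 ± 0.189 (SE, edgeR adjusted p = 0.00448) on the TMM scale and -1.08 on the neutrophil-marker scale, and its call did not hold with erythroid genes left out of the totals (edgeR adjusted p = 0.219).

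*Nfe2l2* (ENSMUSG00000015839, chr2:75675513-75704641, minus strand), which encodes NRF2, was counted at 169, 172 and 182 CPM in the Ctrl libraries and 470.5, 459.6 and 482 CPM in the LIP libraries, with log2 differences of 1.43 ± 0.0923 (SE, edgeR adjusted p = 8.64e-07) on the TMM scale and -0.45 on the neutrophil-marker scale. Libraries of a group lay close together and the groups were far apart. *Keap1*, its inhibitor and ubiquitin ligase adaptor, had 26.4 ± 6.84 CPM in Ctrl and 18.6 ± 1.54 CPM in LIP and did not pass the test (-0.51 ± 0.231 (SE, edgeR adjusted p = 0.086) on the TMM scale and -2.38 on the neutrophil-marker scale), but passed as lower with library totals (edgeR adjusted p = 0.0111) and when Ctrl library 1, the lowest Ctrl library, was left out (edgeR adjusted p = 0.0193). The FPKM ratio of *Nfe2l2* to *Keap1* was 11.3, 7.06 and 7.38 in the Ctrl libraries and 34.5, 29.99 and 30.01 in the LIP libraries, without overlap. *Nqo1* (ENSMUSG00000003849, chr8:107388225-107403206, minus strand), the quinone reductase often read as an NRF2 target, was below the filter at 0.395, 0.929 and 0.219 FPKM in the Ctrl libraries and 0.3900, 0.168 and 0.226 FPKM in the LIP libraries, which is 16 to 86 reads per library. Its groups overlapped, and no difference was called in the fit without a filter (edgeR adjusted p = 0.675). *Nqo2*, a related quinone reductase, had 7.199 ± 2.199 CPM in Ctrl and 13.2 ± 0.396 CPM in LIP, with log2 differences of 0.88 ± 0.292 (SE, edgeR adjusted p = 0.0273) on the TMM scale and -1.03 on the neutrophil-marker scale. That call did not hold without Ctrl library 2, Ctrl library 3, LIP library 2 or LIP library 3 (edgeR adjusted p = 0.0746, 0.0792, 0.058 and 0.0633), nor with library totals (edgeR adjusted p = 0.134, or 0.337 with erythroid genes left out), without a filter (0.0613) or with limma.

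Both methionine sulfoxide reductases, which repair oxidized methionine with electrons from thioredoxin, were higher in LIP on the TMM scale and negative on the neutrophil-marker scale, where *Msra* was called lower and *Msrb1* did not pass (edgeR adjusted p = 0.00738 and 0.581). *Msrb1* (ENSMUSG00000075705, chr17:24736642-24742778, plus strand), a selenoprotein that acts on the R form, was counted at 35.1, 42.9 and 43.3 CPM in the Ctrl libraries and 138, 127 and 156 CPM in the LIP libraries, with log2 differences of 1.79 ± 0.138 (SE, edgeR adjusted p = 2.60e-06) on the TMM scale and -0.084 on the neutrophil-marker scale, the highest of the members on either scale. *Msra* (ENSMUSG00000054733, chr14:64122625-64455903, minus strand), which acts on the S form, was counted at 44.3, 49.3 and 49.6 CPM in the Ctrl libraries and 139.9, 124 and 123 CPM in the LIP libraries, with log2 differences of 1.43 ± 0.121 (SE, edgeR adjusted p = 4.77e-06) on the TMM scale and -0.45 on the neutrophil-marker scale. Neither gene overlapped between the groups. Even *Msrb1* was below the median log2 difference of the mature neutrophil markers.

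Both pentose phosphate enzymes that make NADPH were likewise higher in LIP on the TMM scale and negative on the neutrophil-marker scale. *G6pdx* (ENSMUSG00000031400, chrX:74409483-74429194, minus strand), glucose-6-phosphate dehydrogenase, the entry enzyme, was counted at 96.2, 101 and 99.7 CPM in the Ctrl libraries and 247, 265 and 276 CPM in the LIP libraries, with log2 differences of 1.41 ± 0.103 (SE, edgeR adjusted p = 1.85e-06) on the TMM scale and -0.48 on the neutrophil-marker scale. *Pgd*, 6-phosphogluconate dehydrogenase, had 106 ± 7.24 CPM in Ctrl and 266 ± 4.82 CPM in LIP, with log2 differences of 1.34 ± 0.104 (SE, edgeR adjusted p = 2.74e-06) on the TMM scale and -0.55 on the neutrophil-marker scale. In both genes the libraries of a group were tightly grouped and the groups far apart.

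**Figure D2:**
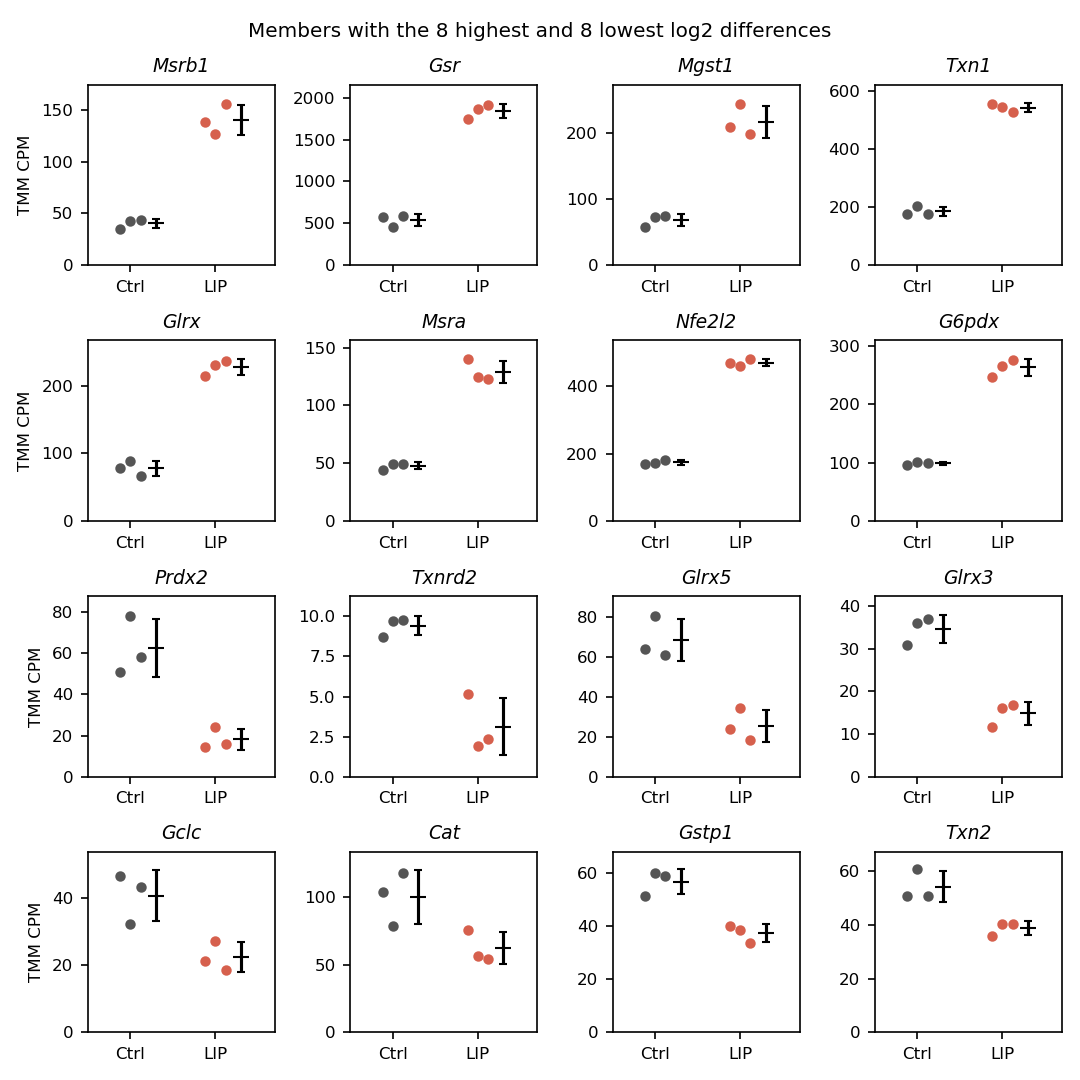
TMM-normalized CPM of the members with the 8 highest (upper panels) and 8 lowest (lower panels) log2 differences among called members. Points are libraries, bars beside them the mean ± SD (n = 3), and the groups do not overlap in any panel. On the neutrophil-marker scale the 8 upper genes also turn negative, from -0.084 for *Msrb1* to -0.48 for *G6pdx*.

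Some contrasts run across these roles. Described above as mitochondrial only were 6 enzymes (*Sod2*, *Prdx3*, *Txn2*, *Txnrd2*, *Glrx2* and *Glrx5*). Of these, 1 was called higher, 3 lower and 2 did not pass on the TMM scale, with a median log2 difference of -0.42. All 6 were negative on the neutrophil-marker scale. Of the 3 lower calls, *Txnrd2* passed the filter only through the Ctrl libraries, and *Txn2* lost its call without a filter (edgeR adjusted p = 0.0627). Of all genes tested 26.5% were called higher and 27.2% lower with TMM, and *Prdx5*, which is also found outside mitochondria and was called higher, is not counted among the 6. Other members whose products may lie partly in mitochondria were not counted either, so the 6 do not stand for all mitochondrial forms. Of the 5 tested members that are selenoproteins (*Gpx1*, *Gpx4*, *Txnrd1*, *Txnrd2* and *Msrb1*), 4 were higher and *Txnrd2* was lower on the TMM scale, with a median of 0.91. All of them were negative on the neutrophil-marker scale. Selenoproteins outside the set, such as *Selenow* described below, were called in both directions and are not counted here. These groupings and the ratios between members were chosen after the values had been seen and were not tested. The FPKM ratio of *Gpx1* to *Cat*, the main removers of hydrogen peroxide outside the peroxiredoxins, was 15.96, 27.1 and 15.3 in the Ctrl libraries and 35.9, 49.9 and 49.9 in the LIP libraries, with Ctrl library 2 nearest to the LIP libraries and no overlap.

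**Figure D3:**
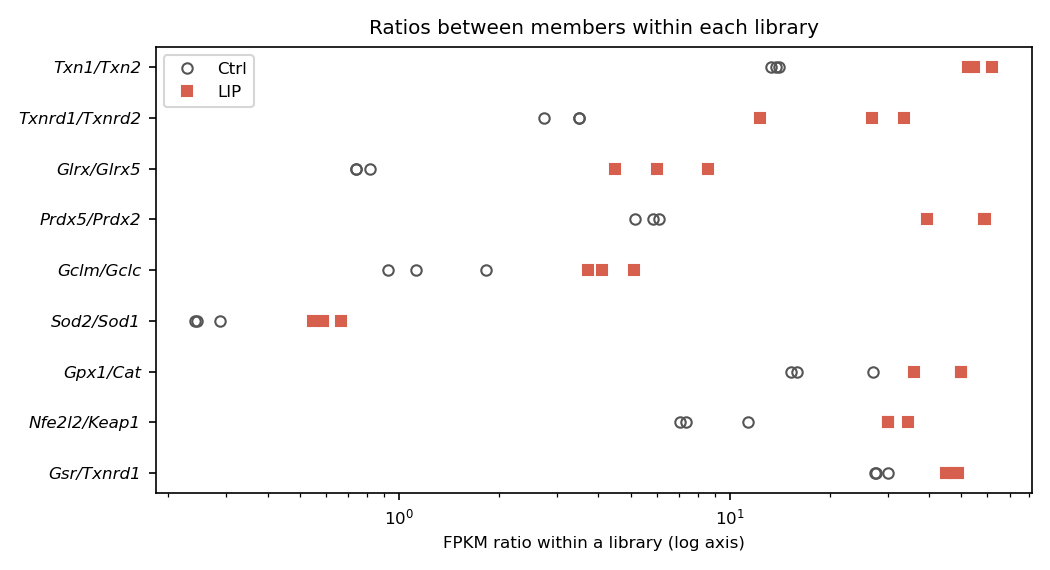
FPKM ratios between members within each library, on a log axis, with open circles for Ctrl and filled squares for LIP libraries. In all 9 ratios shown every LIP library lies above every Ctrl library, and no scaling between libraries changes a ratio. The numerator of each pair is the gene with the higher TMM log2 difference, so the shared direction follows from that choice. The part of the mix of cells in the ratios was not tested.

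Genes of the same pathways outside the set were called in both directions. Of 91 tested, 29 were called higher and 27 lower on the TMM scale (24 and 38 with library totals, 18 and 41 without erythroid genes, 1 and 80 on the neutrophil-marker scale), with a median log2 difference of -0.0036. These counts, and those of the lists below, stand beside 26.5% higher and 27.2% lower of all genes tested with TMM and were not tested against them. Other NRF2 pathway genes had 15 of 31 higher and 7 lower with TMM, but 1 higher and 26 lower on the neutrophil-marker scale. The ferritin light chain gene *Ftl1* was their most abundant gene (2825 ± 341 FPKM in Ctrl and 4813 ± 152 FPKM in LIP, log2 difference 1.07 ± 0.09097 (SE, edgeR adjusted p = 4.86e-06)), the carbonyl reductase gene *Cbr3* had the highest difference (0.472 ± 0.211 FPKM in Ctrl and 4.99 ± 1.04 FPKM in LIP, log2 difference 3.70 ± 0.469 (SE, edgeR adjusted p = 8.66e-05)), and the epoxide hydrolase gene *Ephx1* the lowest (42.3 ± 8.08 FPKM in Ctrl and 4.81 ± 0.699 FPKM in LIP, log2 difference -2.83 ± 0.195 (SE, edgeR adjusted p = 1.34e-06)). *Cbr3* was the 1 pathway gene still called higher on the neutrophil-marker scale (1.81), where *Ftl1* was at -0.81, but it passed the filter only through the LIP libraries (edgeR adjusted p = 0.00128 with TMM and no filter).

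Other thioredoxin-fold and selenium genes had 6 of 30 higher and 14 lower on the TMM scale, but 0 higher and 27 lower on the neutrophil-marker scale. Here *Selenow*, a small selenoprotein, was the most abundant over all libraries and in Ctrl, though in LIP 3 genes of the list were above it (176 ± 10.02 FPKM in Ctrl and 66.4 ± 5.26 FPKM in LIP, log2 difference -1.10 ± 0.121 (SE, edgeR adjusted p = 3.20e-05)), *Txnl4b* had the highest difference (19.8 ± 2.48 FPKM in Ctrl and 48.9 ± 2.16 FPKM in LIP, log2 difference 1.62 ± 0.132 (SE, edgeR adjusted p = 3.78e-06)) and *Txndc16* the lowest (3.03 ± 0.719 FPKM in Ctrl and 0.851 ± 0.142 FPKM in LIP, log2 difference -1.52 ± 0.231 (SE, edgeR adjusted p = 3.17e-04)), and on the neutrophil-marker scale *Txnl4b* was at -0.28. Of the other NADPH supply genes, 5 of 14 were higher and 2 lower (0 and 13 on the neutrophil-marker scale), with transaldolase *Taldo1* the most abundant (319 ± 19.95 FPKM in Ctrl and 664 ± 48.7 FPKM in LIP, log2 difference 1.36 ± 0.0909 (SE, edgeR adjusted p = 1.09e-06)), NAD kinase *Nadk* the highest (66.5 ± 15.7 FPKM in Ctrl and 158 ± 6.76 FPKM in LIP, log2 difference 1.56 ± 0.146 (SE, edgeR adjusted p = 9.98e-06)) and the folate enzyme gene *Mthfd1* the lowest (3.35 ± 0.831 FPKM in Ctrl and 1.07 ± 0.412 FPKM in LIP, log2 difference -1.32 ± 0.355 (SE, edgeR adjusted p = 0.00979)), and on that scale *Taldo1* was at -0.52 and *Nadk* at -0.34. Of the other glutathione enzymes, 3 of 16 were higher and 4 lower (0 and 14 on the neutrophil-marker scale), with the S-formylglutathione hydrolase gene *Esd* closely second to *Hagh* in Ctrl and the most abundant over all libraries (24.5 ± 1.74 FPKM in Ctrl and 41.04 ± 1.86 FPKM in LIP, log2 difference 1.05 ± 0.114 (SE, edgeR adjusted p = 2.96e-05)), the glutathione-degrading *Chac1* the highest (2.64 ± 0.474 FPKM in Ctrl and 10.3 ± 2.13 FPKM in LIP, log2 difference 2.27 ± 0.278 (SE, edgeR adjusted p = 6.87e-05)) and glyoxalase *Glo1* the lowest (2.54 ± 0.133 FPKM in Ctrl and 0.584 ± 0.0887 FPKM in LIP, log2 difference -1.81 ± 0.209 (SE, edgeR adjusted p = 4.43e-05)), and on that scale *Esd* was at -0.83 and *Chac1* at 0.39. Of the pathway genes called lower, 6 passed the filter only through the Ctrl libraries, and without a filter *Gstk1*, *Gstt2* and *Sephs1* lost the call (edgeR adjusted p = 0.262, 0.101 and 0.064) and *Glo1*, *Txndc16* and *Pstk* kept it (3.14e-04, 0.00212 and 0.0266), so 2 of the 4 lower calls among the other glutathione enzymes depend on the filter.

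Promoter windows from RefSeq (GRCm38.p6, 250 bases before to 50 after each gene's start) were matched by symbol for 33 of the 38 members. *Gsr*, *Txnl1*, *Gclc*, *Prdx6* and *Msra* were not matched. The letters TGACNNNGC, the core of the antioxidant response element that NRF2 recognizes with small MAF partners, were searched on both strands. At least 1 window held them in 9 of the 33 members (27.3%) and in 3781 of 27025 genes in all (13.99%). Members had more windows per gene, and by window the shares were 9 of 45 (20%) and 4071 of 32851 (12.4%). Of the 9 members, *Nfe2l2*, *Srxn1*, *Gclm*, *Pgd*, *Mgst1*, *Txnrd1* and *G6pdx* were called higher on the TMM scale, *Sod1* lower, and *Prdx1* did not pass. Thus 7 of the 16 matched members called higher, 1 of the 8 called lower and 1 of the 7 not passed held the letters. The shares among all genes by call were not computed, so this split of few genes has no background and was not tested. A match is a description of the sequence and not a binding site, and no match says only that these letters are not in the window.

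In *Srxn1* and *Pgd* the match lay after the start (positions 29 and 4). For the other 7 members the match lay upstream of the start that RefSeq gives for that window, which in *Txnrd1*, *Mgst1* and *G6pdx* places it inside the span of the gene in the deposited coordinates, and its surroundings are printed to show how the letters differ between members of both directions, 5′ to 3′ on the gene's strand, with the match or its reverse complement in capitals and positions counted from the start:
Nfe2l2 (chr2:75704875-75704913, minus strand, motif from position -240): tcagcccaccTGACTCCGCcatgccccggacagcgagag
Gclm (chr3:122245403-122245451, plus strand, motif from position -134): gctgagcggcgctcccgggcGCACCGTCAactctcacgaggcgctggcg
Txnrd1 (chr10:82859094-82859142, plus strand, motif from position -92): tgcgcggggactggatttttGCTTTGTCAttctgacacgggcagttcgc
Mgst1 (chr6:138140451-138140499, plus strand, motif from position -56): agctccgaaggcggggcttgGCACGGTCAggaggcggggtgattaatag
G6pdx (chrX:74428909-74428957, minus strand, motif from position -57): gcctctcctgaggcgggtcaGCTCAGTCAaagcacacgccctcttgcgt
Prdx1 (chr4:116685446-116685494, plus strand, motif from position -133): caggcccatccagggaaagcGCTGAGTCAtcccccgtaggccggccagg
Sod1 (chr16:90220686-90220734, plus strand, motif from position -56): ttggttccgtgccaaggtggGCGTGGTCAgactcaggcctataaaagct

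Some members share sequence with neighbours. Among the overlaps reported here, 9 members share bases in the deposited coordinates with a neighbour averaging 1 FPKM or more, namely *Sod1* (with *Scaf4*), *Prdx2* (*Rnaseh2a* and *AC163703*), *Prdx5* (*Trmt112*), *Txnrd1* (*Eid3*), *Txnip* (*Gm15441*), *Gclm* (*Gm17494*), *Gss* (*Acss2*), *Nqo2* (*Serpinb6a*) and *G6pdx* (*Ikbkg*). All of these neighbours but *Eid3* lie on the opposite strand, and the use of strand in counting is not given in the sources used here, so reads in an overlap cannot be told apart. The most abundant neighbour was *Trmt112* (27.7 mean FPKM, overlap of 281 bases), far below *Prdx5* itself. For 2 of these 9 members the neighbour was the more abundant and also had a positive TMM log2 difference, namely *Nqo2*, all of which lies within *Serpinb6a* (4.79 mean FPKM against 2.27, log2 difference 0.60, overlap of 23757 bases), and *Gss*, beside *Acss2* (3.36 mean FPKM against 2.19, log2 difference 0.80, overlap of 13800 bases), so the *Nqo2* call in particular is uncertain. *Rnaseh2a* had a TMM log2 difference of -1.58 at 2.702 mean FPKM, beside 12.99 for *Prdx2*, with 181 bases in common.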

How the data were processed

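The 6 Smart-seq2 libraries were grouped by their labels. The table deposited by the authors holds unnormalized counts and FPKM values, the latter scaled by gene length and library total. Trimming with cutadapt 1.9, quality checks with FastQC and the build GRCm38 are named in the submitters' processing notes. The aligner, counting tool and use of strand are not given in the sources used here. Counts were fitted with edgeR 4.0.16 (R 4.3.3, TMM, quasi-likelihood F test, common biological coefficient of variation 0.265) for genes averaging 1 FPKM or more, without a block, and p-values were adjusted over all 10440 genes. Standard errors are the log2 difference divided by the root of F. The fit was tested on simulated data. No library repeated another of its group (chi-square per gene 51.9 to 126, far above sampling noise). Reads without molecular identifiers include PCR copies. All members were named by role, and values of every library were given for the most abundant member of each role over all libraries, the 8 highest and 8 lowest log2 differences among called members, and members under the filter. For each other pathway list the most abundant gene and the called genes with the highest and lowest difference were named, and for each marker list the most abundant gene. *Hagh*, *Irf8*, *Ly6g*, the immature neutrophil markers other than *Camp* and the lower pathway genes that passed the filter only through Ctrl were named after their values were seen. Members and lists were chosen with earlier results of these data known. Of the overlaps between genes, 1 is not reported here. Of the 118 other pathway genes listed, 116 were in the table. Alternatives were other scalings, filters, DESeq2 1.42.0, limma 3.58.1 on log2(FPKM + 1) and log2(FPKM + 0.1), a replicate block and leaving out each library.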

Additional observations from a re-analysis of the deposited data

How the results depend on the processing

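Scaling moved the results more than any other choice. On the neutrophil-marker scale 0 members were called higher by edgeR, also at an unadjusted p under 0.05 since no member was positive there, and 33 lower, with 43 and 9370 of all genes and 1 and 80 other pathway genes. The marker genes used for that scale were themselves higher with TMM, and the scale lowers every gene by about that amount. The members' median became -1.24, and the log2 differences that changed sign were *Sod2* -1.10, *Gpx1* -1.32, *Gpx4* -0.98, *Prdx5* -0.51, *Prdx6* -1.16, *Srxn1* -0.57, *Txn1* -0.33, *Txnrd1* -0.84, *Glrx* -0.34, *Gclm* -0.96, *Gss* -1.42, *Gsr* -0.12, *Gsto1* -1.08, *Mgst1* -0.22, *Nfe2l2* -0.45, *Nqo2* -1.03, *Msra* -0.45, *Msrb1* -0.084, *G6pdx* -0.48, *Pgd* -0.55. With erythroid genes left out of library totals, 15 members were called lower, 1451 of all genes higher and 5133 lower, 18 other pathway genes higher and 41 lower, *Gss* was at -0.078, and *Sod2*, *Gpx1*, *Prdx6*, *Gsto1* and *Nqo2* lost their calls. Members called lower were 15 with library totals and 15 and 15 with limma at pseudocounts of 1 and 0.1, the 6 added in each being *Prdx1*, *Prdx3*, *Prdx4*, *Txnip*, *Txnl1* and *Keap1*. A mean FPKM of at least 5 left 5328 genes to test, with 1768 called higher and 1869 lower, and 17 other pathway genes lower of 52 tested. *Glrx2*, near 0, was at 0.034 with DESeq2, 0.029 without a filter and 0.038 with filterByExpr, and ran from -0.17 to 0.15 when 1 library was left out, as *Txnip* did from -0.22 to 0.0065. Leaving out 1 library gave 18 to 19 members higher and 7 to 10 lower, and 25 of the 28 called members kept their call in all 6 such fits, the exceptions being *Sod1*, *Txn2* and *Nqo2*, which also lost it without a filter. With the replicate block, 19 members were called higher and 10 lower, *Prdx1* (log2 difference -0.49) being the 1 call that changed. Correlations between the deviations of same-numbered libraries were -0.008299, 0.0444 and 0.02102, and those of differently numbered libraries ran from -0.0465 to 0.0281. No pairing was visible, but these values cannot show whether same-numbered libraries were processed together. Why the calls moved beyond the scale and the number of genes or libraries was not tested. With 3 pools a group, members at low CPM, such as *Txnrd2*, *Nqo2*, *Gss* and *Prdx4*, have the widest errors.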
